A study of Mus musculus with 2 samples.

Results

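The genes described here build, hold back and take apart actin filaments. The 10 genes *Actb*, *Actg1*, *Pfn1*, *Cfl1*, *Tmsb4x*, *Tmsb10*, *Coro1a*, *Arpc1b*, *Arpc2* and *Capzb* were taken by symbol from the 32285 genes listed in the deposited matrices, and all 10 were found. They were read in donor T cells of a mouse model of acute graft-versus-host disease (aGvHD), in which donor T cells attack the tissues of a transplant recipient. Lethally irradiated BALB/c (H-2d) recipients received T cell–depleted bone marrow and purified splenic T cells of wild-type C57BL/6 (H-2b) donors. The labels call these T cells naive. The study's sequencing methods refer back to a model that used naive T cells, while its figure legends for the sequenced cells do not call them naive. Live cells of donor origin (H2Kb+, H2Kd-) that carried CD45 and TCRβ were sorted from the spleen on day +7 or day +14 after allogeneic hematopoietic cell transplantation (allo-HCT) for single-cell RNA-seq. The study's own question was how T cell metabolism moves between these days. Both libraries carry PBS in their names, which the labels do not explain, and neither a resting T cell library nor a syngeneic library was analysed here.

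Each day was a single library of cells pooled from several spleens, so no value below has a replicate error and the days cannot be told apart from the libraries. Differences are therefore given as sizes without tests, and every interval covers counting error alone. The labels name day +7 as the sorting day for both libraries in their protocol text, and the day was taken from the sample titles. Barcodes with 500 to 7500 genes and at most 15% mitochondrial UMIs were kept, which left 7179 of 7355 barcodes on day 7 and 7794 of 8043 on day 14, with a median of 9210 and 8144 UMIs. The libraries shared 20 barcode sequences, of which 17 were kept in both. Levels are given as CPM, the UMIs of a gene per 1000000 UMIs of the same cells. A UMI stands for 1 captured RNA molecule, so these levels were not divided by gene length.

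Cells were gated without any of the 10 genes. A T cell carried at least 1 UMI of 6 T cell receptor genes and no excess of neutrophil, macrophage, erythroid or B cell marker UMIs, which held for 6961 barcodes on day 7 and 7635 on day 14. CD8 cells (at least 2 UMIs of *Cd8a* and *Cd8b1*, none of *Cd4*) numbered 5746 and 5796, and CD4 cells (at least 1 *Cd4* UMI, none of *Cd8a* or *Cd8b1*) 477 and 709. Cycling cells, set by 16 G2/M genes and 15 S-phase genes, numbered 3987 and 4567. Chemokine-high cells, which are non-cycling T cells with at least 20 *Ccl3* and *Ccl4* UMIs per 10000, numbered 118 and 347. "Other CD8" and "other CD4" are the cells of those gates that were neither cycling nor chemokine-high.

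Actin exists in a cell as single subunits (monomers) and as filaments. Thymosins β4 and β10 bind monomers and keep them out of filaments, profilin hands monomers to growing filament ends, cofilin severs and shortens old filaments, coronin 1A binds filaments and the Arp2/3 complex, the Arp2/3 complex starts new branches on existing filaments, and capping protein closes the fast-growing ends. In T cells these proteins carry out migration and the spreading of the cell against a target at the immune synapse. Loss of coronin 1A is known to impair the survival and egress of naive T cells.

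The thymosin transcripts are the pair on which the difference between the days turned, so their coding sequences are printed. In the GRCm38 build (mm10), *Tmsb4x* (ENSMUSG00000049775) lies on the minus strand at chrX:167207093-167209315 and *Tmsb10* (ENSMUSG00000079523) on the minus strand at chr6:72957347-72958748. Both coding sequences have 135 bases with the stop codon, and the 40 bases that differ between them are in capitals:

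Tmsb4x: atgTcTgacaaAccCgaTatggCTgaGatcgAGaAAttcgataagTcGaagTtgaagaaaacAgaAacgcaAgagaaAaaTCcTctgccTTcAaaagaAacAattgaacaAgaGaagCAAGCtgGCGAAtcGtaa

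Tmsb10: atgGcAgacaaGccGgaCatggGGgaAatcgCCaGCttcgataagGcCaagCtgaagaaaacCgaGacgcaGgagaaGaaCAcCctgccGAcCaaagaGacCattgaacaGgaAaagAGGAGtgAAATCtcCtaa

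The sequences matched at 95 positions (70.4%) and shared no identical run longer than 10 bases. Copies elsewhere are a separate matter. Of all 50-base windows in the annotated *Tmsb10* protein-coding transcripts, 27.0% also occurred in transcripts of other genes (46.9% in the last 400 bases), mostly in *Gm9844* and *Gm3788*, while no window of *Tmsb4x* did. *Gm9844* was listed in the matrices with 1075 UMIs on day 7 and 608 on day 14, under 0.4% of the *Tmsb10* UMIs, and adding it left the *Tmsb10* log2 ratio between the days at -0.90. Reads that fit several genes equally were not counted by the authors' pipeline in its usual setting, so the level of *Tmsb10* itself may be understated.

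The actin pair is more alike. The coding sequences of *Actb* (ENSMUSG00000029580, chr5:142903115-142906754, minus strand) and *Actg1* (ENSMUSG00000062825, chr11:120345690-120348542, minus strand) matched at 1000 of 1128 bases (88.7%), with a longest identical run of 62. Other genes held 43.9% of the *Actg1* windows, led by the copies *Gm12715* and *Gm8399*, and 12.2% of the *Actb* windows. The share of *Actg1* within the actin pair is therefore uncertain as a level, and it is used below only for comparison between gates and between days. For *Pfn1*, *Coro1a* and *Capzb* no window was shared, and for *Arpc2*, *Cfl1* and *Arpc1b* the share was 0.145%, 8.22% and 10.7%.

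Several actin genes are classic targets of serum response factor (SRF), which binds the CArG box and is held inactive while actin monomers bind its coactivator. The RefSeq promoter table for GRCm38.p6 held 12 windows for 9 of the 10 genes; *Actb* had no entry and was not searched. Within the 250 bases before the start, a CArG box was found for 1 of these 9 genes, *Actg1*, 90 bases upstream, against 1.62% of the 27025 genes of the table. It is printed as the only such match among them, on the minus strand of chr11:120348496-120348745, with the CArG box and the GC boxes (GGGCGG on either strand) in capitals:

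Actg1: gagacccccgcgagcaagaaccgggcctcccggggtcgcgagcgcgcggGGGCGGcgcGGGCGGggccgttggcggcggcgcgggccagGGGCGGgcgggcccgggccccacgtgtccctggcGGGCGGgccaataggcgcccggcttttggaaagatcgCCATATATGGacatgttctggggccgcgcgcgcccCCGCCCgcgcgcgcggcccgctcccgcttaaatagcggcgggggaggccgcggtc

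The thymosin promoters are shown beside it because their transcripts moved apart from the others between the days. They are chrX:167209219-167209468 and, for the most downstream of 3 annotated *Tmsb10* starts, chr6:72958233-72958482, both on the minus strand. This *Tmsb10* window lies inside the gene span given above and holds 2 GC boxes. The windows of the other *Tmsb10* starts hold 1 each and are not printed. The *Tmsb4x* window overlaps its gene span in part. GC boxes are in capitals:

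Tmsb4x: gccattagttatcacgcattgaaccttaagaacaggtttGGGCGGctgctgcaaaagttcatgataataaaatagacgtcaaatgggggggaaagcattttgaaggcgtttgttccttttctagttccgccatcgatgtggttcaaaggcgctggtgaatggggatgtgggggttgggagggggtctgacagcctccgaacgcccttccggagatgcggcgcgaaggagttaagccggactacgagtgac

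Tmsb10: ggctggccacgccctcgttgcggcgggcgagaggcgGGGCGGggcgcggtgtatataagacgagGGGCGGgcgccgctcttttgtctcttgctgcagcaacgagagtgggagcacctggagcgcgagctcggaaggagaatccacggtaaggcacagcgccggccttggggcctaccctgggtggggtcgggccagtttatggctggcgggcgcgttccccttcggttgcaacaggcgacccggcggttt

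GC boxes were present for 8 of the 9 genes against 35.4% of all genes in the table, and TATAAA on either strand for none against 14.3%. The wider actin list described below had entries for 75 genes. Of these, 52 had a GC box, 6 had TATAAA and 4 had a CArG box, so GC boxes were frequent there too. A match in these letters is a description of sequence and was not tested for binding.

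The 10 genes together made up 51546 CPM of all RNA counted on day 7 and 45721 CPM on day 14. *Tmsb4x* alone supplied 24933 CPM on day 7 and 20274 CPM on day 14 and ranked 1st of all genes by UMIs on both days. *Actb* ranked 3rd with 10783 CPM on day 7 and 2nd with 11256 CPM on day 14. The others followed in the order *Tmsb10*, *Actg1*, *Pfn1*, *Coro1a*, *Cfl1*, *Arpc2*, *Arpc1b* and *Capzb* on day 7. On day 14 *Tmsb10* stood below *Actg1* and *Pfn1*, having moved from rank 54 to rank 96, and the order of the others was kept. The distance between neighbours in these orders was larger than the counting intervals in each case. Those intervals do not cover reads lost to sequence shared with other genes (27.0% of *Tmsb10* and 43.9% of *Actg1* windows). The places of these 2 genes against the others are therefore uncertain.

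**Figure D1:**
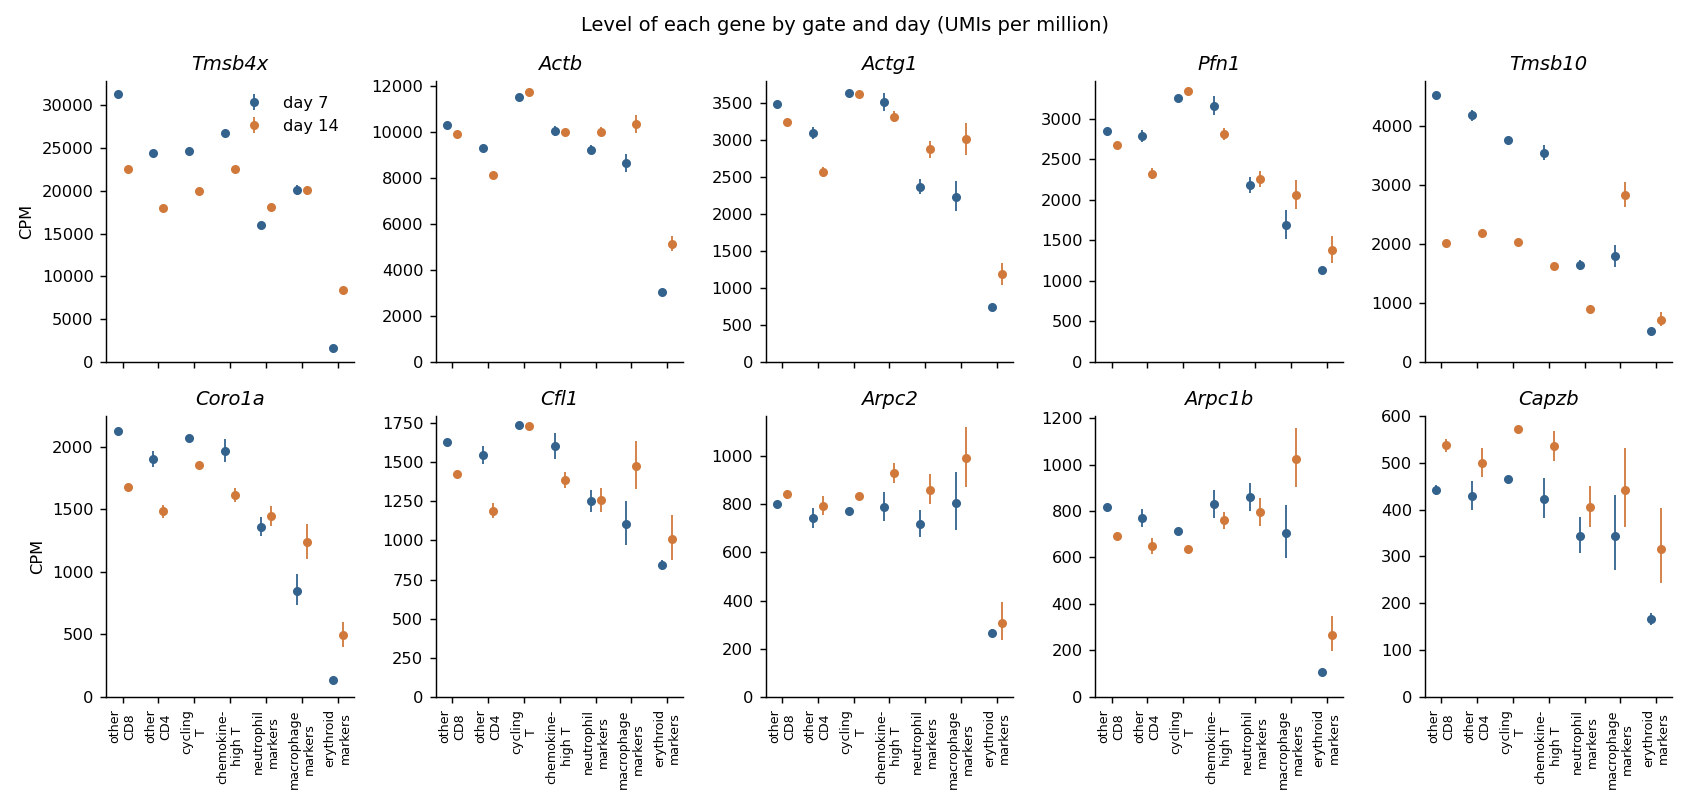
Level of each gene in CPM (y axis, from 0) in 4 T cell gates and 3 gates of barcodes with other lineages' markers (x axis) on day 7 (blue) and day 14 (orange). Bars are exact 95% Poisson intervals for counting error, with 1 library per day. *Tmsb10* lies lower on day 14 in each T cell gate, *Capzb* lies higher, and barcodes with erythroid markers (only 28 on day 14) lie lowest for each gene.

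Between the days the summed level of the genes was lower on day 14 in each T cell gate, and the thymosins made up most of the difference. In all kept cells the log2 ratio of day 14 over day 7 was -0.17 for the 10 genes together (95% interval -0.17 to -0.17) and 0.04 for the 8 genes without the thymosins (22846 and 23433 CPM). In the CD8 gate these values were -0.22 and 0.00, and in the CD4 gate -0.26 and -0.11. All kept cells include barcodes of other lineages, which held less of the genes and supplied 4755328 UMIs on day 7 but 1334431 on day 14. In T cells alone the 10 genes summed to 53652.1 and 45860.5 CPM, and 4 of them were above 0 in log2 ratio, in place of 5. In all kept cells only *Tmsb10* passed a fold of 1.5 in either direction, which 11.1% of the 6919 tested genes did, 8.45% upward and 2.67% downward. All 10 genes passed the filter on low values (10 CPM averaged over the groups compared) in every comparison. The median log2 ratio was 0.01 over the 10 genes, 0.18 over all tested genes and -0.01 over the 100 genes with the highest mean level. When the libraries were instead scaled by the median ratio of genes with at least 100 UMIs in both, every log2 ratio moved down by 0.21, and *Capzb* alone stayed above 0.

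*Tmsb10*, the smaller of the monomer-holding thymosins by level, had the largest difference of the 10 genes. In all kept cells it stood at 3767 CPM on day 7 and at 2014 CPM on day 14, a log2 ratio of -0.90 (95% interval -0.91 to -0.89), and only 1.5% of all tested genes had a lower ratio. In other CD8 cells the levels were 4530 and 2018 CPM, with a log2 ratio of -1.17 (95% interval -1.19 to -1.14). Cycling CD8 cells went from 3761 to 2009 CPM (log2 ratio -0.90), and chemokine-high cells from 3549 to 1630 CPM (log2 ratio -1.12). The log2 ratio was -0.94 in other CD4 cells (4187 and 2188 CPM) and -0.60 in cycling CD4 cells (3616 and 2390 CPM), nearer to 0 than in the matching CD8 gates; the difference between the gates was not tested. The background for a fold of 1.5 downward was 3.33% of tested genes in other CD8, 2.60% in cycling CD8, 6.35% in chemokine-high, 4.03% in other CD4 and 3.76% in cycling CD4 cells. *Tmsb10* was the single member called in each of these 5 gates.

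**Figure D2:**
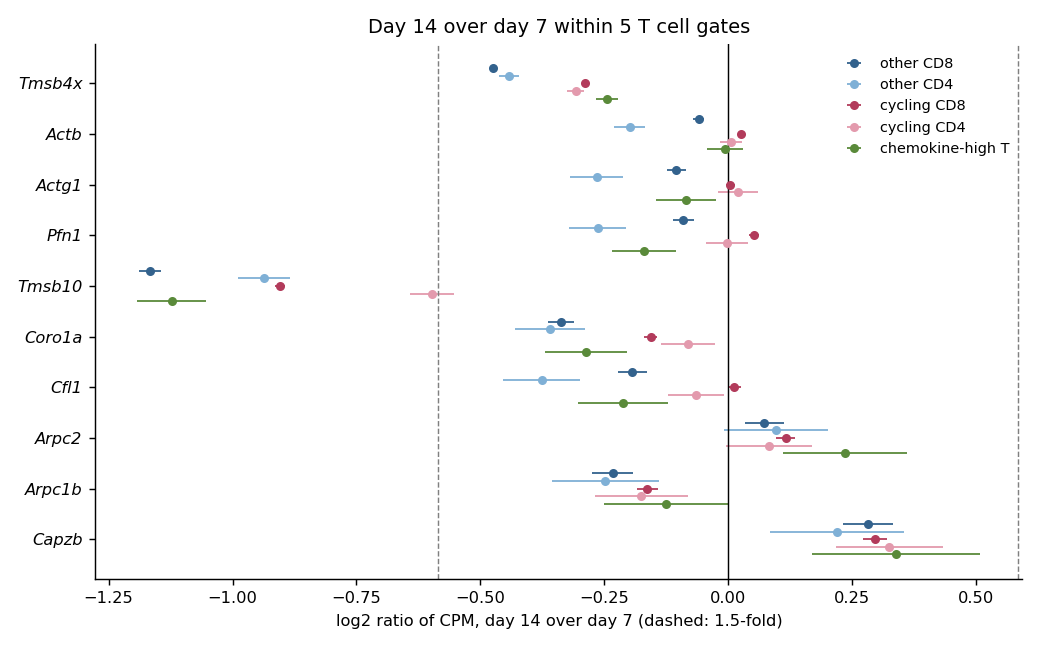
Log2 ratio of CPM, day 14 over day 7 (x axis), for each gene (y axis) in 5 T cell gates (colours), with exact 95% intervals for counting error and dashed lines at a fold of 1.5. *Tmsb10* lies left of the lower line in each gate, from -1.17 in other CD8 cells to -0.60 in cycling CD4 cells, and *Capzb* and *Arpc2* lie right of 0.

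The difference in *Tmsb10* was also present at equal depth per cell. Cells under 4000 UMIs were dropped and the others thinned to that number, which dropped more cells on day 14: 63 of 2212 other CD8 cells on day 7 and 300 of 1756 on day 14, and 13 and 175 other CD4 cells, which left 236 and 259. In the cells that stayed, the median other CD8 cell held 18 *Tmsb10* UMIs on day 7 (quartiles 13 and 22) and 8 on day 14 (quartiles 5 and 11). The upper quartile of day 14 lay below the lower quartile of day 7. In other CD4 cells the median was 17 on day 7 (quartiles 13 and 22) and 8 on day 14 (quartiles 5 and 12), and in cycling CD4 cells it was 15 and 10. *Tmsb10* was still seen in 99.0% of other CD8 cells and 98.8% of other CD4 cells on day 14 at this depth. The shares with a UMI in barcodes of other lineages, whose thinned depth is the same, were 68.3% under neutrophil markers (60 barcodes), 53.8% under erythroid markers (13 barcodes) and 100% under macrophage markers (15 barcodes) on day 14. The median other CD8 cell held 232 UMIs of the 10 genes together on day 7 and 183 on day 14, which is 5.8% and 4.58% of its UMIs.

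**Figure D3:**
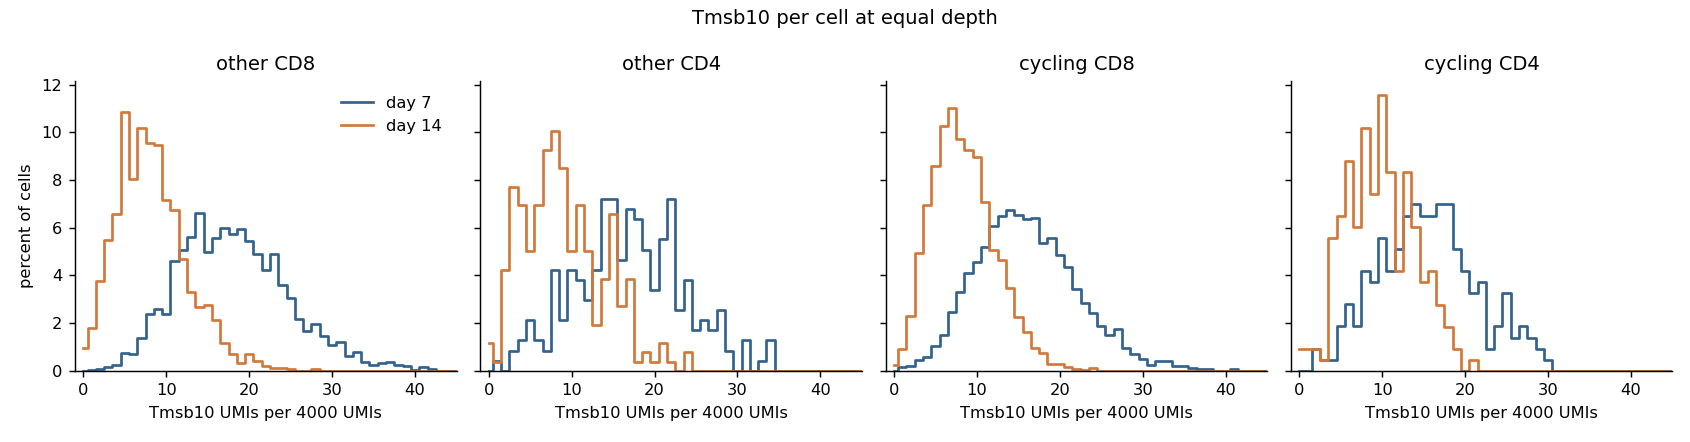
Share of cells in percent (y axis) by number of *Tmsb10* UMIs after thinning each cell to 4000 UMIs (x axis) on day 7 (blue) and day 14 (orange) in 4 T cell gates. The day 14 curves lie left of the day 7 curves, with medians of 8 against 18 in other CD8 cells and 10 against 15 in cycling CD4 cells.

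*Tmsb4x* was also lower on day 14, by less. Its log2 ratio was -0.30 in all kept cells (24933 and 20274 CPM), -0.47 in other CD8 cells (31273 and 22518 CPM) and -0.44 in other CD4 cells (24377 and 17948 CPM). In cycling cells it was -0.29 (CD8) and -0.31 (CD4). Since both thymosins bind the same form of actin, the share of *Tmsb10* in their sum was followed as well. It was 13.1% on day 7 (95% Clopper-Pearson interval 13.1% to 13.2%) and 9.04% on day 14 (8.99% to 9.08%) in all kept cells. The share was 12.98% and 8.78% in CD8 cells and 14.2% and 11.2% in CD4 cells. The chemokine-high gate had the lowest share of the T cell gates plotted on both days, 11.7% and 6.74%.

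**Figure D4:**
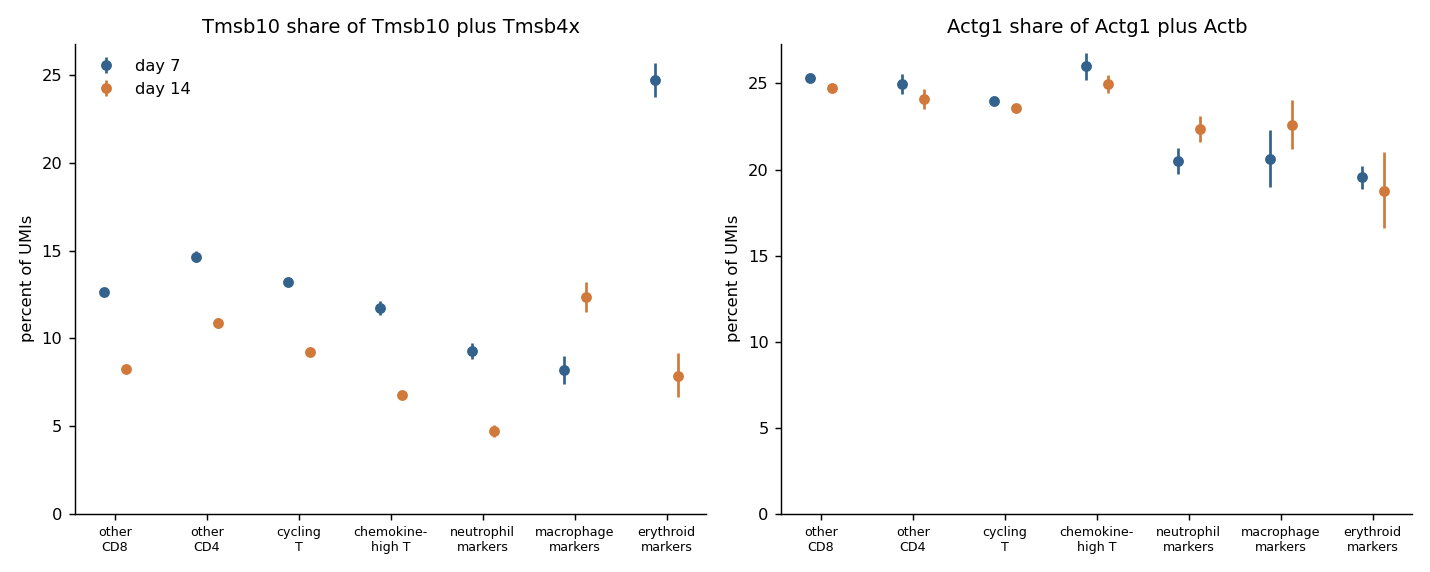
Share of *Tmsb10* in the UMIs of both thymosins (left) and of *Actg1* in the UMIs of both actins (right), in percent (y axes, from 0), by gate (x axis) on day 7 (blue) and day 14 (orange), with exact 95% binomial intervals for counting error. The thymosin share is lower on day 14 in each T cell gate, and the actin share stays between 23% and 26.1% in them.

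The actins themselves, the subunits of the filament, differed little between the days. *Actb* stood at 10783 and 11256 CPM in all kept cells, a log2 ratio of 0.06, and *Actg1* at 3451 and 3502 CPM, a log2 ratio of 0.02. Both ratios turn below 0 under median ratio scaling (-0.15 and -0.19). In T cells alone *Actb* stood at 11148 and 11288 CPM, and *Actg1* was lower on day 14, at 3586 and 3516 CPM. In cycling CD8 cells *Actb* had a log2 ratio of 0.03 (11552 and 11756 CPM), whereas in other CD4 cells it had one of -0.20 (9299 and 8104 CPM). *Actg1* made up 24.2% of the actin pair on day 7 and 23.7% on day 14 in all kept cells. Among T cells the G2/M and S gates differed in this share on day 7, with 24.2% (95% interval 24.1% to 24.3%) and 21.9% (21.6% to 22.2%), and much less on day 14, with 23.6% and 23.4%.

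Profilin (*Pfn1*, chr11:70651850-70654644, minus strand) and cofilin (*Cfl1*, chr19:5490455-5495201, plus strand), which load and remove actin subunits, differed little between the days in all kept cells. *Pfn1* stood at 3045 CPM on day 7 and 3171 CPM on day 14 in all kept cells (log2 ratio 0.06, and -0.15 under median ratio scaling). *Cfl1* stood at 1665 and 1652 CPM (log2 ratio -0.01). In cycling CD8 cells neither was lower on day 14, with log2 ratios of 0.05 and 0.01. In non-cycling cells *Cfl1* had a log2 ratio of -0.19 in other CD8 cells (1633 and 1429 CPM) and -0.38 in other CD4 cells (1547 and 1191 CPM), and *Pfn1* one of -0.09 and -0.26. In chemokine-high cells *Pfn1* (3161 and 2810 CPM) and *Cfl1* (1605 and 1386 CPM) were lower on day 14, while *Actb* was even (10015 and 9971 CPM).

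*Coro1a* (chr7:126699773-126707787, minus strand) was lower on day 14 in each T cell gate. It went from 1987 to 1801 CPM in all kept cells (log2 ratio -0.14, 95% interval -0.15 to -0.13), from 2124 to 1682 CPM in other CD8 cells (-0.34) and from 1904 to 1484 CPM in other CD4 cells (-0.36). In cycling CD4 cells the difference was smallest, from 2008 to 1898 CPM (-0.08).

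The 2 Arp2/3 subunits in the list went apart. *Arpc1b* (chr5:145114215-145130705, plus strand), the subunit form enriched in blood cells, was lower on day 14, with 714.8 and 650.8 CPM in all kept cells (log2 ratio -0.14) and -0.23 in other CD8 cells. *Arpc2* (chr1:74236084-74268209, plus strand), part of the core that holds the complex to the mother filament, was higher, with 756.1 and 838.7 CPM (log2 ratio 0.15), though median ratio scaling brought it to -0.06. *Capzb* (chr4:139192899-139291818, plus strand), the β subunit of capping protein, was higher in each T cell gate, with 444.3 and 560.9 CPM in all kept cells. Its log2 ratio there was 0.34 (95% interval 0.32 to 0.36), or 0.13 under median ratio scaling, and it lay between 0.22 and 0.34 in the 5 gates plotted. With a limit of 25% in place of a fold of 1.5, *Capzb* was the single member called upward in all kept cells, as were 29% of tested genes.

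Within a day, CD8 cells held more RNA of most of the genes than CD4 cells. The 10 genes together stood at 54158 CPM in CD8 and 49196 CPM in CD4 cells on day 7 (log2 ratio 0.14) and at 46633 and 41013 CPM on day 14 (0.19). On day 14, 9 of the 10 genes were above 0 in log2 ratio and none passed a fold of 1.5, as 9.81% of all tested genes did. On day 7 that share was 5.88%, again with no member. *Tmsb4x* had log2 ratios of 0.20 and 0.21. *Tmsb10* was on the CD8 side on day 7 and on the CD4 side on day 14, with 3942 CPM in CD8 and 3816 CPM in CD4 cells on day 7 (log2 ratio 0.05, 95% interval 0.03 to 0.07) and 2000 against 2273 CPM on day 14 (-0.18, 95% interval -0.21 to -0.16). The log2 ratio of *Actb* was 0.11 on day 7 and 0.23 on day 14, and that of *Cfl1* was 0.19 on day 14, with an interval that included 0 on day 7. The CD8 and CD4 gates differed in their share of cycling cells and in depth, which these values do not hold equal. CD8 cells had a median of 9486 UMIs and CD4 cells 8295 on day 7, and 8831.5 and 5324 on day 14. The median log2 ratio of the 10 genes was 0.07 on day 7 and 0.15 on day 14. Over all tested genes it was -0.02 and -0.01. Between cycling CD8 and cycling CD4 cells the median of the 10 genes was 0.06 and 0.06, and between other CD8 and other CD4 cells 0.11 and 0.19.

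Cycling and non-cycling T cells differed in which of the genes they held. *Actb*, *Actg1*, *Pfn1*, *Cfl1* and *Capzb* were higher in cycling cells on both days, *Tmsb4x*, *Arpc1b* and *Arpc2* were lower on both, and no gene of the 10 passed a fold of 1.5, which 21.2% of tested genes did on day 7 and 25.9% on day 14. For *Arpc2* the difference was small. At 4000 UMIs on day 7 the mean cycling cell held 3.14 of its UMIs and the mean non-cycling cell 3.15. *Actb* stood at 11526 CPM in cycling and 10115 CPM in non-cycling cells on day 7 (log2 ratio 0.19), and at 11734 and 9641 CPM on day 14 (0.28). *Pfn1* had log2 ratios of 0.19 and 0.34, and *Cfl1* of 0.10 and 0.34. The difference was widest in CD4 cells on day 14, where cycling cells exceeded other CD4 cells by 0.46 in *Actb* (11143 and 8104 CPM), 0.47 in *Pfn1* (3208 and 2322 CPM) and 0.54 in *Cfl1* (1737 and 1191 CPM) on the log2 scale. *Tmsb4x* went the other way, with 24630 CPM in cycling and 30015 CPM in non-cycling cells on day 7 (log2 ratio -0.29) and 20005 and 21482 CPM on day 14 (-0.10). Cycling cells were also deeper, with a median of 12734 against 6708.5 UMIs on day 7 and 11913 against 5040.5 on day 14. The summed log2 ratio went from -0.11 to -0.03 on day 7 and from 0.08 to 0.11 on day 14 when cells were thinned to 4000 UMIs. At that depth the mean cycling cell held 108.0 *Tmsb4x* UMIs on day 7 and the mean non-cycling cell 121.9. On day 14 the mean was 87.9 in cycling cells, little below the 88.6 of all T cells, which include them.

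Chemokine-high cells, which carry transcripts of recent stimulation, held less *Tmsb10* than other non-cycling T cells on both days. The levels were 3549 and 4474 CPM on day 7 (log2 ratio -0.33, 95% interval -0.39 to -0.28) and 1630 and 2060 CPM on day 14 (-0.34, 95% interval -0.39 to -0.29). *Pfn1* was higher in chemokine-high cells on both days, with 3161 and 2833 CPM on day 7 (0.16) and 2810 and 2605 CPM on day 14 (0.11). *Arpc1b* and *Arpc2* had ratios of 0.16 and 0.14 on day 14, and on day 7 their intervals included 0. No member passed a fold of 1.5, against 14.1% of tested genes on day 7 and 3.96% on day 14. The gate held only 118 cells on day 7.

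Barcodes with more UMIs of other lineages' markers than of the T cell genes gave a contrast within the sort. They numbered 211 on day 7 (47 with neutrophil, 40 with macrophage and 124 with erythroid markers) and 150 on day 14 (86, 34 and 28, with 2 more under B cell markers). In T cells the summed neutrophil, macrophage and erythroid markers stood between 13.9 and 46.1 CPM on both days, beside 5984 and 7613 CPM of the 6 T cell genes. Summed over the lineages, these barcodes had a summed log2 ratio over T cells of -1.81 on day 7 and -0.33 on day 14. As their makeup differed between the days, each lineage is given apart.

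Barcodes with erythroid markers had the lowest level of all 10 genes on day 7. These were led by *Car1* (1885 CPM) and *Car2* (1719 CPM), with *Klf1* at 204.3 CPM and less hemoglobin than on day 14, and had a median of 32598.5 UMIs. The 10 genes summed to 8544 CPM in them and to 53652 CPM in T cells, a log2 ratio of -2.65. The members were not equally low. *Tmsb4x* stood at 6.08% of its T cell level (1585 against 26074 CPM) and *Coro1a* at 6.35% (132 against 2079 CPM), close to the 5.53% at which the T cell genes stood in the same barcodes. Whether the transcripts at this level came from T cell RNA in the same droplets was not tested. *Cfl1* by contrast was at 49.4%, *Pfn1* at 36.2%, *Capzb* at 36.2%, *Arpc2* at 34.1% and *Actb* at 27.3%. *Tmsb10*, at 13.2%, was less reduced than *Tmsb4x*, and its share of the thymosin pair was 24.7%, above the share in each other gate on either day. The median such cell at 4000 UMIs held 1 *Tmsb4x* UMI, against 112 in T cells, and *Coro1a* was seen in 12.7% of them against 99.9% of T cells. All 10 genes passed a fold of 1.5 downward, as 22% of tested genes did. On day 14 only 28 barcodes fell in this gate, 13 of them with at least 4000 UMIs. Their T cell genes stood at 28.6% of the T cell level and their *Tmsb4x* at 41.2%. With so few barcodes and this share, the day 14 value was not compared. Barcodes with neutrophil markers had a like share of T cell genes on day 14 (28.9%), so their values below carry the same limit.

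Barcodes with neutrophil markers held *Tmsb10* well below its level in T cells, while the place of most other members depended on the scaling. *S100a8* and *S100a9* led them on both days, and their T cell genes stood at 23.9% of the T cell level on day 7 and 28.9% on day 14. *Tmsb10* stood at 1636 CPM on day 7 (log2 ratio over T cells -1.27) and 896.4 CPM on day 14 (-1.18), and its share of the thymosin pair was 9.26% and 4.72%. Between the days its log2 ratio was -0.87 (95% interval -0.99 to -0.74), with a background of 8.3% of tested genes lower by 1.5-fold. The part of T cell RNA in this value was not tested. At 4000 UMIs their median cell held 2 *Tmsb10* UMIs on day 7 (mean 3.95, 95th percentile 17.3) and 1.5 on day 14 (mean 2.55, 95th percentile 9.05), so a few barcodes carried much of the sum. *Arpc1b* stood higher than in T cells on both days, with 858.6 and 794.3 CPM against 739.7 and 649.1 CPM (log2 ratios 0.22 and 0.29). On day 7, 4 of the 10 genes were lower by 1.5-fold, against 33.7% of tested genes, and on day 14 it was 1, against 39.1%. The summed neutrophil markers took 218597 and 251396 CPM of the RNA in these barcodes, and median ratio scaling moved each log2 ratio over T cells up by 0.40 and 0.45. Under it, 3 of the 10 genes were above 0 on day 7 (*Actb*, *Arpc1b* and *Arpc2*), in place of 1, and 7 on day 14, in place of 2, with *Tmsb10* still at -0.86 and -0.73.

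Barcodes with macrophage markers were few, and their leading markers differed between the days, with *C1qa* (3430 CPM) ahead on day 7 and *Lyz2* (8929 CPM) on day 14. Their T cell genes stood at 27.8% and 11.1% of the T cell level. *Tmsb4x* stood at 20084 and 20053 CPM in them. *Tmsb10* was higher in them on day 14, unlike in the T cell gates, with 1788 CPM on day 7 and 2828 CPM on day 14 (log2 ratio 0.66, 95% interval 0.48 to 0.84), where 29.6% of tested genes passed a fold of 1.5 upward.

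A wider list of 88 actin genes in 10 classes set the members in their pathway; 86 were found in the matrices and 76 passed the filter in all kept cells. Of these, 2 were higher on day 14 by a fold of 1.5 (background 8.45%) and 1 was lower (background 2.67%), with 50 above 0 and 26 below. The median log2 ratio was 0.09, against 0.18 for all tested genes, and with median ratio scaling 28 were above 0. None of the tested 7 other Arp2/3 subunits, 4 formins and elongation factors, 11 monomer-binding and severing factors, 13 bundling and membrane-linking factors or 9 tropomyosins and myosins passed a fold of 1.5.

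*Capg*, a filament-capping protein known from macrophages, was the gene of the wider list that differed most, with 258.5 CPM on day 7 and 92.8 CPM on day 14 (log2 ratio -1.48, 95% interval -1.52 to -1.44). In other CD8 cells it went from 278.7 to 89.9 CPM (-1.63) and in other CD4 cells from 267.5 to 216.9 CPM (-0.30, 95% interval -0.49 to -0.12). Cycling CD8 cells went from 257.0 to 72.2 CPM and cycling CD4 cells from 305.9 to 175.1 CPM. Barcodes with macrophage markers stood at 119.2 CPM on day 7 (26 UMIs) and 402.3 CPM on day 14. Those with neutrophil markers stood at 209.9 and 234.2 CPM, and T cells at 268.7 and 90.5 CPM. The other capping subunit genes were close to even, with *Capza2* at 227.0 and 217.4 CPM (-0.06).

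*Coro2a*, a coronin relative, was higher on day 14 (29.6 and 49.5 CPM, log2 ratio 0.74), as was *Cyfip1* of the WAVE complex that activates Arp2/3 (12.7 and 20.9 CPM, 0.72). Both were low in level. The most abundant gene of most other classes described was even or lower on day 14. *Arpc3* of the Arp2/3 complex had a log2 ratio of -0.34 (874.3 and 689.1 CPM), and *Lsp1*, a filament-binding protein of leukocytes, -0.38 (818.5 and 630.1 CPM). *Myl6*, a myosin light chain, had one of -0.30 (1878 and 1529 CPM). *Vasp*, which extends filaments, was at -0.12, *Brk1* of the WAVE complex at -0.04 and *Gmfg*, which removes Arp2/3 branches, at 0.00. *Mrtfa*, the coactivator of SRF that senses free actin, was measured at 14.6 and 18.0 CPM (0.30).

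**Figure D5:**
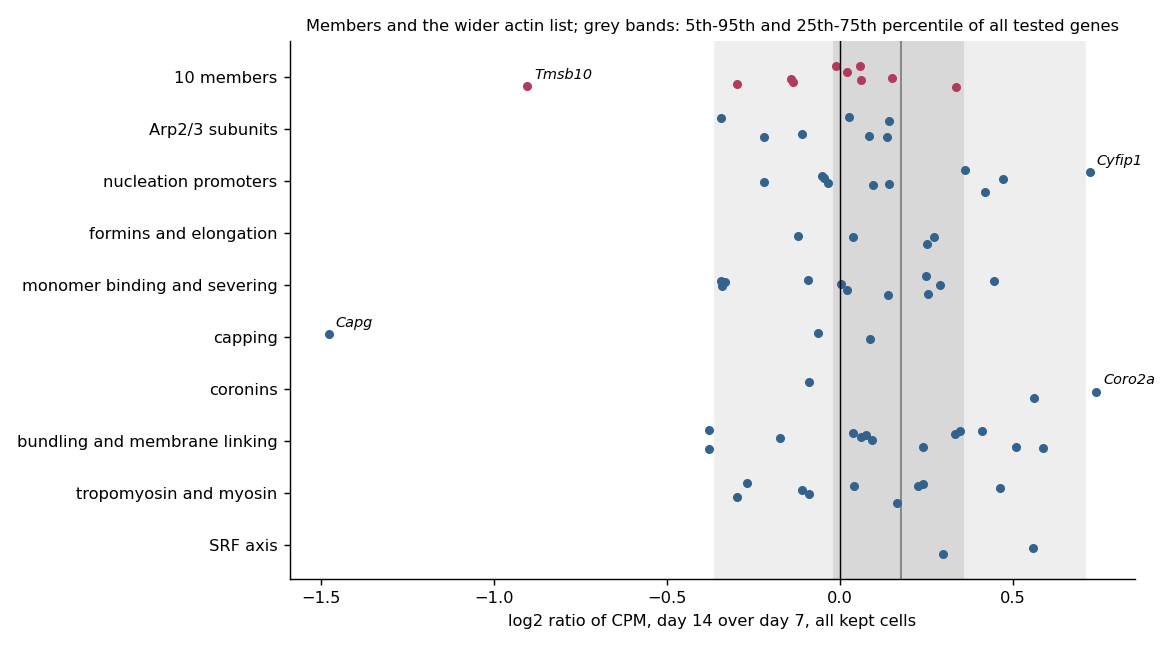
Log2 ratio of CPM, day 14 over day 7 in all kept cells (x axis), for the 10 genes (red) and for the tested genes of 9 classes of the wider list (blue); points are spread within a row for visibility. Grey bands span the 5th to 95th and 25th to 75th percentiles of the 6919 tested genes, with their median of 0.18. *Tmsb10* among the 10 genes and *Capg* in the wider list lie farthest left of the wide band.

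Across 5 separate gates on both days, giving 10 points, the genes whose level was most like the summed level of the members by Pearson's r were *Tmsb4x* (0.99), *Coro1a* (0.99), *Lsp1* (0.98), *Cdc42* (0.98) and *Actg1* (0.98), out of 2526 genes that averaged 50 CPM or more. *Tmsb4x*, *Coro1a* and *Actg1* are part of the sum. The points share 2 libraries, and 2 of the 10 points, from barcodes with other lineages' markers, spread the values most. With those points left out, which was chosen after seeing the data, r over 8 points was 0.94, 0.94, 0.88, 0.91 and 0.78. *Capzb* and *Arpc2* then ran against the sum, at -0.58 and -0.27.

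From cell to cell within a gate, the median pair of the genes had a low Pearson's r at equal depth, taken on log-transformed UMIs. Counting by itself pulls r toward 0 for genes with few UMIs per cell. *Arpc1b*, *Arpc2* and *Capzb* averaged 3.27, 3.20 and 1.75 UMIs in other CD8 cells on day 7, against 40.6 for *Actb*. How closely the genes go together beyond this counting effect was not tested. Over the 45 pairs the median Pearson's r lay between 0.10 and 0.22 in the 8 combinations of gate and day, and the highest single value was 0.58, for *Actb* and *Actg1* in other CD4 cells on day 14. The coefficient of variation of *Tmsb10* between other CD8 cells was 36.9% on day 7 and 51.9% on day 14, while that of *Actb* was 34.7% and 40.2%. The lower number of *Tmsb10* UMIs on day 14 by itself widens that value through counting.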

How the data were processed

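Single-cell droplet libraries, 1 for day 7 and 1 for day 14, were analysed. The deposited values are raw UMI counts per gene and barcode, which the authors made with Cell Ranger 6.1.2 on mm10 (per the labels); the library end that was sequenced is not given in the sources used here. The 10 genes and all lists were chosen with earlier results of these data known. Counts were summed over the cells of a gate and divided by the total of the same cells (CPM), with exact Poisson intervals; ratios have exact conditional binomial intervals and shares Clopper-Pearson intervals, all at 95% and for counting error only. With 1 library per day no test was made. A gene was tested for a fold of 1.5 on log2(CPM + 1) where its mean was at least 10 CPM. Log2 ratios printed for single genes carry no pseudocount.

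Gate limits were 10 (G2/M) and 20 (S phase) list UMIs per 10000. Near those limits, within 25%, lay 592 and 912 T cells on day 7 and 597 and 1088 on day 14, with 117 and 309 near the chemokine limit. Scrublet (scanpy 1.11.5) marked 2 of 7355 barcodes on day 7 and none of 8043 on day 14, so doublet calling had not worked and no barcode was removed as a doublet; leaving out the 433 and 518 highest scores was an alternative. Named genes were the 10 members, the most abundant gene of each class of the wider list, every gene of that list past a fold of 1.5, and the 5 genes most alike in profile. Scripts ran under Python 3.11.15 with numpy 2.4.6 and scipy 1.17.1 and were tested on simulated data. Coordinates and coding sequences come from GENCODE (GRCm38), and promoter sequences from RefSeq. Alternatives covered scaling, thinning to 4000 UMIs, a 5% mitochondrial limit, gate limits and the total. The genes of 1 class of the wider list are counted in its totals, and that class is not reported here.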

Additional observations from a re-analysis of the deposited data

Results flagged for a closer look

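The direction of several differences turned between days or between gates. With 1 library per day, none of these differences was tested. Between the days, *Actb* had a log2 ratio of 0.023 in CD8 cells and -0.0952 in CD4 cells, and *Pfn1* of 0.0414 and -0.122. Cycling cells made up 3444 of 5746 CD8 cells on day 7 and 3778 of 5796 on day 14, but 215 of 477 and 229 of 709 CD4 cells. Within matched gates *Actb* had a log2 ratio of 0.03 in cycling CD8 cells and 0.01 in cycling CD4 cells, and of -0.06 in other CD8 cells and -0.20 in other CD4 cells. *Tmsb10* stood at 0.0471 (CD8 over CD4, log2) on day 7 and at -0.184 on day 14. In cycling over non-cycling T cells *Tmsb10* had a log2 ratio of -0.24 on day 7 and 0.018 on day 14, and the 10 genes together of -0.106 and 0.0767. In chemokine-high over other non-cycling T cells *Tmsb4x* had one of -0.175 on day 7 and 0.0797 on day 14, and the 10 genes together of -0.111 and 0.0563. With gate limits doubled the summed day 14 value was -0.027, on the same side as day 7. *Arpc1b* in barcodes with other lineages' markers over T cells had one of -1.39 on day 7, when 124 of the 211 such barcodes were under erythroid markers, and of 0.212 on day 14, when 28 of 150 were.

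Barcodes left out by the limits on genes and mitochondrial UMIs also carried the 10 genes, at 28571.7 CPM in 176 barcodes on day 7 and 24960.5 CPM in those of day 14, against 51546 and 45721 CPM in the kept barcodes.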

How the results depend on the processing

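No paired analysis was possible because each day is 1 library. No value has an error between mice, and the chemokine-high and other-lineage gates hold few cells. *Tmsb10* kept its direction under every alternative, with all-kept log2 ratios between the days of -1.11 to -0.90, and *Capzb* ranged from 0.13 to 0.34. Barcodes with other lineages' markers are called non-T here. Taking these lineages apart, and the likeness without them, were chosen after seeing the data. With a limit of 25% in place of a fold of 1.5, 1 member was higher on day 14. Of the values of main comparisons, 122 stayed the same, 112 moved and 1 reversed (chemokine-high over other cells, day 14, gate limits doubled). A ratio or share stayed the same if it lay within its counting interval, and a count of members if it was equal or within a fold of 1.5. Only ratios have a direction that could reverse. The cause of the reversal was not tested.

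With cells thinned to 4000 UMIs, the summed log2 ratio was -0.21 (between days, all kept), -0.22 (between days, CD8), -0.28 (between days, CD4), 0.15 (CD8 over CD4, day 7), -0.033 (cycling over non-cycling T, day 7), -1.6 (non-T over T, day 7), 0.21 (CD8 over CD4, day 14), 0.11 (cycling over non-cycling T, day 14), 0.025 (chemokine-high over other non-cycling T, day 14) and -0.39 (non-T over T, day 14). The *Tmsb10* share was 12.8% (day 7, all kept), 8.62% (day 14, all kept), 12.7% (day 7, CD8), 8.32% (day 14, CD8), 14% (day 7, CD4), 10.7% (day 14, CD4), 13% (day 7, cycling T), 8.8% (day 14, cycling T), 8.98% (day 7, non-T) and 5.76% (day 14, non-T). The *Actg1* share was 24.4% (day 7, all kept), 23.6% (day 14, all kept), 23.7% (day 14, CD8), 25.2% (day 7, CD4), 23.7% (day 7, cycling T), 23.2% (day 14, cycling T) and 21% (day 14, non-T). With gate limits doubled, the summed log2 ratio was -0.21 (between days, CD8), -0.24 (between days, CD4), 0.20 (CD8 over CD4, day 7), -0.098 (cycling over non-cycling T, day 7), -0.17 (chemokine-high over other non-cycling T, day 7), 0.22 (CD8 over CD4, day 14), 0.032 (cycling over non-cycling T, day 14) and -0.027 (chemokine-high over other non-cycling T, day 14). The *Tmsb10* share was 7.33% (day 14, chemokine-high T). For *Actg1* the share was 23.9% (day 7, cycling T) and 23.3% (day 14, cycling T). With gate limits at 50%, the summed log2 ratio was -0.034 (cycling over non-cycling T, day 7), -0.013 (chemokine-high over other non-cycling T, day 7) and 0.15 (cycling over non-cycling T, day 14). The *Tmsb10* share was 13.2% (day 7, cycling T) and 9.15% (day 14, cycling T). The *Actg1* share was 27.1% (day 7, chemokine-high T) and 25.6% (day 14, chemokine-high T). Without the highest Scrublet scores, the summed log2 ratio was -0.22 (between days, CD8), -0.11 (cycling over non-cycling T, day 7), -0.13 (chemokine-high over other non-cycling T, day 7) and -1.84 (non-T over T, day 7). The *Tmsb10* share was 9.27% (day 14, cycling T). For *Actg1* the share was 23.9% (day 14, all kept), 24% (day 14, CD8) and 23.7% (day 14, cycling T). As the mean of each cell's CPM, the summed log2 ratio was -0.24 (between days, all kept), -0.24 (between days, CD8), -0.36 (between days, CD4), 0.15 (CD8 over CD4, day 7), -0.021 (cycling over non-cycling T, day 7), -1.56 (non-T over T, day 7), 0.27 (CD8 over CD4, day 14), 0.20 (cycling over non-cycling T, day 14) and -0.25 (non-T over T, day 14). The *Tmsb10* share was 12.9% (day 7, all kept), 8.63% (day 14, all kept), 12.8% (day 7, CD8), 8.37% (day 14, CD8), 14% (day 7, CD4), 10.4% (day 14, CD4), 13% (day 7, cycling T), 8.88% (day 14, cycling T), 8.04% (day 7, non-T) and 4.28% (day 14, non-T). The *Actg1* share was 23.1% (day 14, all kept), 24.2% (day 7, CD8), 23.4% (day 14, CD8), 24.6% (day 7, CD4), 23.2% (day 14, CD4), 23.6% (day 7, cycling T), 22.8% (day 14, cycling T), 24.4% (day 14, chemokine-high T), 19.1% (day 7, non-T) and 19.9% (day 14, non-T). The all-kept log2 ratio between days turned to -0.051 (*Actg1*) and -0.016 (*Pfn1*). Under median ratio scaling, the summed log2 ratio was -0.38 (between days, all kept), -0.43 (between days, CD8), -0.36 (between days, CD4), 0.16 (CD8 over CD4, day 7), -0.10 (cycling over non-cycling T, day 7), -2.01 (non-T over T, day 7), 0.20 (CD8 over CD4, day 14), 0.16 (cycling over non-cycling T, day 14), 0.039 (chemokine-high over other non-cycling T, day 14) and -0.066 (non-T over T, day 14). The all-kept log2 ratio between days turned to -0.15 (*Actb*), -0.19 (*Actg1*), -0.15 (*Pfn1*) and -0.059 (*Arpc2*). Under a mitochondrial limit of 5%, the summed log2 ratio was -0.21 (between days, CD8), -0.11 (cycling over non-cycling T, day 7), -1.79 (non-T over T, day 7), 0.18 (CD8 over CD4, day 14), 0.059 (cycling over non-cycling T, day 14) and 0.045 (chemokine-high over other non-cycling T, day 14). For *Actg1* the share was 23.8% (day 14, all kept) and 24% (day 14, CD8). Without non-T barcodes, the summed log2 ratio was -0.23 (between days, all kept). The *Actg1* share was 24.3% (day 7, all kept). The all-kept log2 ratio between days turned to -0.028 (*Actg1*). With ribosomal and mitochondrial genes out of the total, the summed log2 ratio was -0.18 (between days, all kept), -0.21 (between days, CD8), -0.28 (between days, CD4), 0.11 (CD8 over CD4, day 7), -0.17 (cycling over non-cycling T, day 7), -0.13 (chemokine-high over other non-cycling T, day 7), -1.74 (non-T over T, day 7), 0.026 (cycling over non-cycling T, day 14), 0.015 (chemokine-high over other non-cycling T, day 14) and -0.53 (non-T over T, day 14).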
